A study of Mus musculus with 14 samples.

Results

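The interferon-stimulated genes are 43 genes that cells switch on when interferon reaches them, and they were chosen by gene symbol among the 43472 genes listed in the deposited tables. Of these, 42 were found by symbol and Ifit3b under its older symbol I830012O16Rik. They were followed in wounded mouse fibroblasts with and without autologous micrograft (AMG), an extract of mouse skin. Primary fibroblasts, connective tissue cells taken from the tail tip of C57BL/6 mice and grown in culture, were scratched and left untreated or given AMG. AMG was made from murine skin biopsies that were disrupted in a Rigeneracons device and passed through a filter. The paper describes the fraction used as noncellular, centrifuged to remove cells and debris, and it was diluted 1:10 in growth medium. The labels give no age or number of animals, and name no altered gene in either group. Replicate 1 held 1 untreated and 1 AMG-treated library at each of 1, 5, 12 and 24 h, and replicates 2, 3 and 4 held both groups at 5 h only, which gave 14 libraries.

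Interferons are secreted proteins that bind receptors on the cell surface. The receptors activate JAK kinases, which phosphorylate STAT proteins, and a complex that holds STAT2 and IRF9 then binds the interferon-stimulated response element (ISRE) in front of target genes. The targets include sensors of viral nucleic acid, proteins that block viral replication, the factors IRF7 and STAT2 themselves, and inhibitors such as USP18, and many of them can also be switched on by the factors IRF3 and IRF7 without interferon. Fibroblasts both make and answer type I interferon.

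Values are normalised read counts, that is, reads assigned to a gene divided by a scaling factor of the library. A ratio is AMG-treated over untreated and is given as the log2 of (normalised count + 1), so 1 is close to a doubling of all but low counts. Each library had between 12545537 and 34696529 reads on genes. Ribosomal protein genes took 7.0% of reads in the untreated 5 h library and 5.10% in the AMG-treated 1 h library of replicate 1, against 2.27% to 3.47% in the other libraries. The defining fibroblast markers were above 0 in every library, 9 of 9, but the levels of some differed between replicates. Thy1 was at 14712 untreated and 14412 treated in replicate 3, against 1068 to 1723 in replicates 2 and 4. Lum was at 333 and 219 in replicate 3, against 1423 to 6374 in those 2. Vim ranged only from 97797 to 128928 over the 3 replicates. Leukocyte markers, of which 11 were listed, summed to 65.9 to 86.0 RPM (reads scaled to 1000000 reads in a library) in the untreated libraries of replicate 1 and to 22.3 to 52.0 in its treated libraries. They summed to 9.49 to 15.2 in replicates 2 and 3 and to 73.7 untreated and 63.4 treated in replicate 4. Lyz2 had the largest count of the 11 in every library, and the T cell marker Cd3e was at 0 reads throughout. With bulk RNA, fewer cells of a type and less RNA per cell cannot be told apart.

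Transcripts of the interferons themselves were almost absent. Of 11 interferon genes listed, 8 had 0 reads in all 14 libraries. Ifnb1, the interferon that fibroblasts make first, had 2 reads in the AMG-treated 12 h library and 0 in every other. Ifng and Ifne did not exceed 2 reads in any library. All of these values lie under the floor of 3 reads that a count of 0 allows, which covers counting error only, so no difference between groups was detectable at this depth.

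The interferon-stimulated genes stood highest in the AMG-treated library at 12 h. In replicate 1, 38 of the 43 genes had a mean normalised count of at least 10, and the other 5, Mx1, Oas1a, Oas2, Oas3 and Cxcl9, were too low to be counted among them. At 12 h, 35 of these 38 had a log2 ratio above 1, where 5.93% of the 13498 genes kept by the same filter did, and 0 had a ratio below -1, where 6.9% of all genes did. The median ratio was 2.50, a fold of 5.66, against -0.01 for all genes. Because a gene can pass the filter through its treated value alone, the count was repeated on genes with an untreated mean of at least 10. Then 33 of 36 were above 1, where 5.18% of all genes kept were. Over all 43 genes, 39 were above 1, where 8.63% of all genes above 0 were. Each time point of replicate 1 had 1 library per group, so these ratios have no replicate check and carry no p-value.

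**Figure D1:**
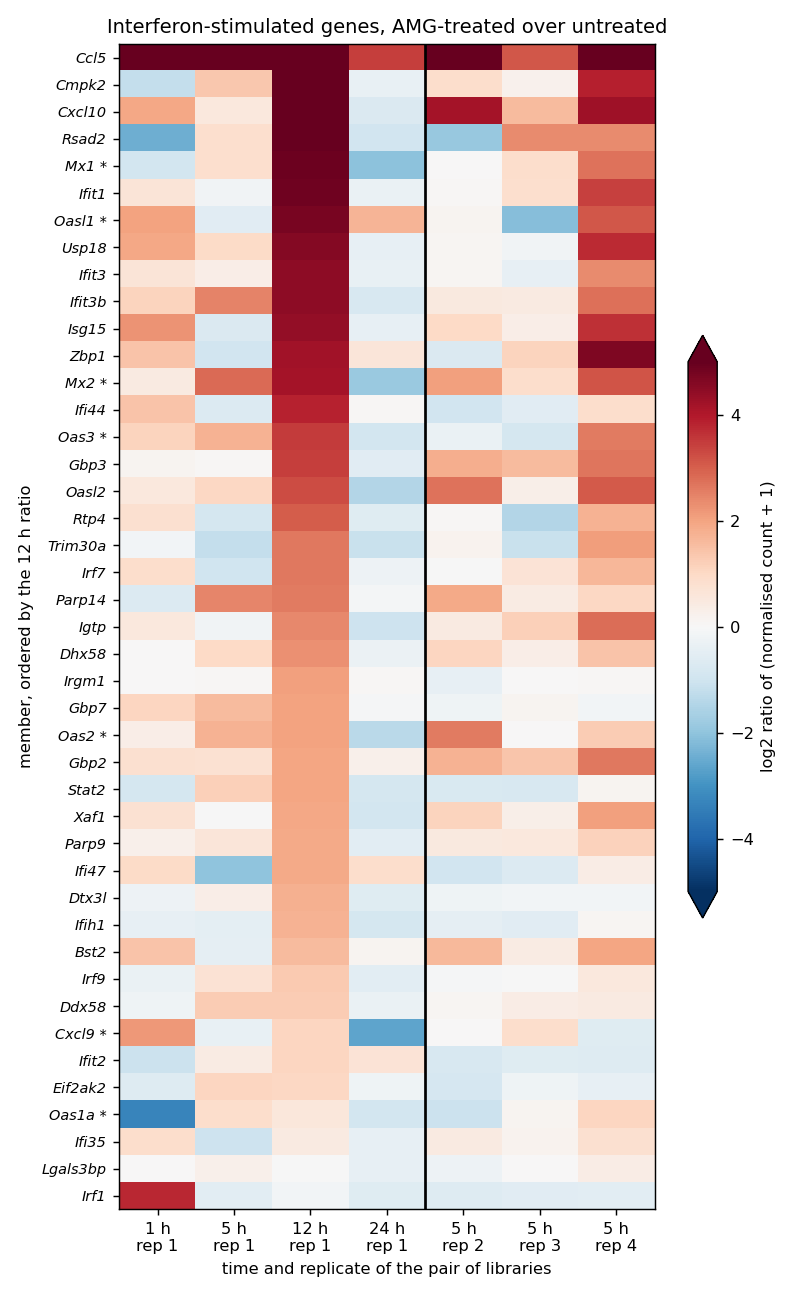
Log2 ratio of AMG-treated to untreated normalised counts (+ 1) for the 43 interferon-stimulated genes (vertical axis, ordered by the 12 h ratio) in 7 pairs of libraries (horizontal axis, time and replicate), with the colour scale ending at 5 on either side of 0 and an asterisk on genes with a mean under 10 in either table. The 12 h column is red for nearly all genes, 35 of 38 above 1, and the replicate 4 column at 5 h is redder than those of replicates 2 and 3.

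The IFIT proteins bind viral RNA and block its translation. Ifit1 (chr19:34640871-34650009, plus strand, GRCm38) had normalised counts of 82.6, 32.8, 59.3 and 218 in untreated cells at 1, 5, 12 and 24 h, and 130, 28.6, 1743 and 172 in treated cells. The treated 12 h library stood far above the other 7, and its fold over the untreated 12 h library was 29.4, with a 95% counting interval of 23.5 to 37.2. Ifit3 stood at 57.8 untreated and 1301 treated at 12 h, and its near copy Ifit3b at 16.8 and 391.7, ratios of 4.47 and 4.46. Reads of these copies may have been split or shared by the counting. Ifit2 behaved differently from its neighbours on chromosome 19. It was at 316 untreated and 659 treated at 12 h, a ratio of 1.06, and its treated 24 h value of 487 was also above the untreated 302.

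ISG15 is a ubiquitin-like protein that is attached to other proteins, and USP18 removes it and shuts off the interferon receptor. Isg15 stood at 77.3, 136, 43.9 and 142 in untreated cells over the 4 times and at 376, 82.8, 931 and 107 in treated cells. It was therefore above its untreated partner at 1 and 12 h and below it at 5 and 24 h, with a 12 h fold of 21.2 (counting interval 16.3 to 28.0). Usp18 was above its untreated partner at 1, 5 and 12 h, with 12 h values of 47.6 and 1170 and a fold of 24.6 (19.16 to 32.08). Per kilobase of exon, the scale on which genes can be compared, Isg15 at 1232 was the second highest of the 43 genes in the treated 12 h library, after Lgals3bp at 1590.

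Enzymes and GTPases that act on viruses were mostly low in untreated cells and high in the treated 12 h library. Rsad2, which makes a chain-terminating nucleotide, and Cmpk2, its neighbour on chromosome 12 and a nucleotide kinase, stood at 3.7 and 4.4 in untreated cells at 12 h and at 148 and 236 in treated cells. Their untreated values rest on 5 and 6 reads, so the folds of 40.4 and 53.8 have wide counting intervals, 16.9 to 126 and 24.4 to 148. Oasl1, a member of the oligoadenylate synthetase family, stood at 4.4 and 142, and Oasl2 at 78.3 and 762. The synthetases Oas1a, Oas2 and Oas3 did not exceed 31 reads in any library. Mx2, a dynamin-like GTPase, stood at 8.8 and 173 at 12 h. Mx1 had 0 reads in the untreated and 30 in the treated 12 h library, at least 13.02-fold higher when set against the floor of 3 reads.

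The guanylate-binding proteins and immunity-related GTPases attack the vacuoles of intracellular microbes and are known as targets of interferon gamma. All 6 of them had a 12 h ratio above 1, from 1.89 for Ifi47 to 3.44 for Gbp3, with a median of 2.04. Gbp2 was at 274 untreated and 1093 treated at 12 h, and in this gene the treated library was the higher of the pair at all 4 times, with 423 against 732 at 1 h, 315 against 528 at 5 h and 576 against 684 at 24 h. Igtp stood at 68.1 and 361 at 12 h, a ratio of 2.39, and Irgm1 had a ratio of 2.06. Igtp, Ifi47 and Gbp7 overlap other genes on the same strand, as do Irf9 and Rtp4, which leaves their counts uncertain.

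Chemokines of the set draw T cells and other leukocytes. Cxcl10 stood at 9.7, 11.5, 4.4 and 38.3 in untreated cells and at 40.0, 17.0, 215 and 22.5 in treated cells at 1, 5, 12 and 24 h, with a 12 h fold of 49.1 (22.2 to 135). Ccl5 differed from all the others in its course. Untreated cells had 3.5, 4.9, 0 and 6.9, and treated cells had 162, 189, 141 and 85.5, so the treated library was high at every time and highest at 5 h. Its 12 h fold was at least 64.2 against the floor of 3 reads, and its fold was 46.0 at 1 h (17.4 to 172) and 12.4 at 24 h (6.27 to 28.0). Cxcl9 did not exceed 14 reads in any library.

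Among the transcription factors, Stat2 and Irf9, partners in the complex that binds the ISRE, stood at 510 and 580 in untreated cells and at 2012 and 1432 in treated cells at 12 h, ratios of 1.98 and 1.30. Irf7, which amplifies type I interferon production, stood at 157 and 976, a ratio of 2.63. Irf1, an early factor that both interferon types and NF-kB induce, had another course. It was at 203 untreated and 2789 treated at 1 h, a fold of 13.7 (12.0 to 15.8), and at 553 and 503 at 12 h, so that the treated library was the higher of the pair only at 1 h. Irf1, Irf7, Cxcl10, Usp18, Oasl1, Dhx58, Ifi35, Ifi47, Gbp2, Parp9, Dtx3l, Rtp4, Trim30a and Eif2ak2 overlap a gene annotated on the other strand, and whether the counting used strand is not given in the sources used here.

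All but 1 of the sensors of nucleic acid had a 12 h ratio under the median of the set. Ddx58, which encodes RIG-I, stood at 1044 untreated and 2495 treated (ratio 1.26), Ifih1, which encodes MDA5, at 185 and 618 (1.73), and Dhx58, which regulates both, at 50.5 and 248 (2.27). Eif2ak2, the kinase PKR that halts translation, stood at 681 and 1415 (1.05). Zbp1, a sensor of Z-form nucleic acid that can start necroptosis, was the exception, at 14.6 and 283 (4.18).

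Other members with a 12 h ratio above 1 included Xaf1, a pro-apoptotic protein (140 and 540, ratio 1.94), and the ADP-ribosyltransferases Parp9 (282 and 1056, ratio 1.90) and Parp14 (145 and 889, ratio 2.61). Further ones were Ifi44 (ratio 3.87), Rtp4 (3.01), Trim30a (2.63) and Dtx3l (1.78). Bst2, the tetherin that holds virus particles at the cell surface, stood at 270 and 821 at 12 h, a ratio of 1.60, but was highest at 1 h in treated cells, at 1268. Only 3 of the 38 genes had a 12 h ratio under 1. These were Ifi35, at 482 and 664 (ratio 0.46), Lgals3bp, a secreted glycoprotein, at 4590 and 4528 (-0.02), and Irf1 (-0.13).

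**Figure D2:**
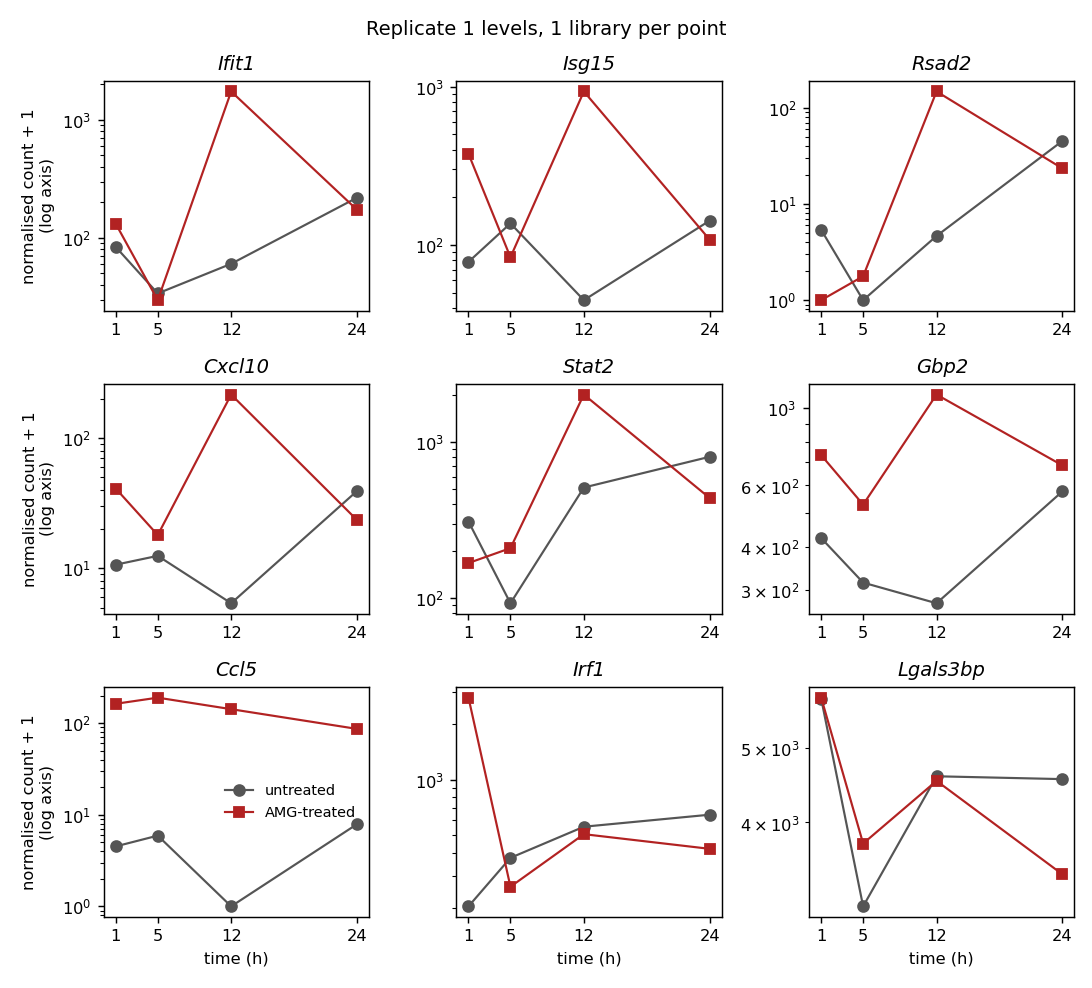
Normalised count + 1 (vertical log axis, scaled separately in each panel) against time in hours for 9 interferon-stimulated genes in replicate 1, with grey circles for untreated and red squares for AMG-treated libraries, 1 library per point. Ifit1, Isg15, Rsad2, Cxcl10, Stat2 and Gbp2 are highest in the treated 12 h library, Ccl5 is high in treated cells at all 4 times, and Irf1 is highest in treated cells at 1 h, at 2789.

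The 12 h ratio came from the treated library more than from a low untreated one. Of the 38 genes, 34 had their highest value of the 8 libraries in the treated 12 h library, against 10.4% of all genes, and the 4 others were Irf1, Bst2 and Lgals3bp, highest in treated cells at 1 h, and Ccl5. Treated cells at 12 h exceeded treated cells at 5 h by a median log2 ratio of 3.25 and treated cells at 24 h by 2.29, and the 12 h value was above the 24 h value for all 38. Untreated cells also changed with time. Against 1 h, the median log2 ratio of the 38 genes in untreated cells was -0.73 at 5 h, 0.35 at 12 h and 1.06 at 24 h. For all genes it was -0.05, -0.00 and -0.02. At 24 h, 20 of the 38 genes were above 1, where 7.02% of all genes were. The sum of the leukocyte markers was lower in the treated than in the untreated 12 h library, 29.8 against 67.0 RPM. Most of it was Lyz2, at normalised counts of 336 treated and 899 untreated, and Cd68 (73.4 and 67.3) and Cd74 (5.7 and 2.9) were not lower. Ribosomal protein genes took 2.55% of reads in the treated and 2.87% in the untreated 12 h library. The part of these markers and of the ribosomal share in the 12 h ratio was not tested.

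The promoters of the members are shown to set the genes that moved together beside those that did not. RefSeq promoter sequences (GRCm38.p6) were matched by symbol for 33 of the 43 genes, with 38 start sites, and the 250 bases before each start were searched. The ISRE core was taken as GAAA, any 2 bases, GAAA, on either strand. It was found at 16 of the 38 start sites, 42.1%, and at 2.98% of all 32851 promoter windows searched, which did not cover every chromosome. Below, the 6 windows are those of the IFIT genes with the largest 12 h ratios, of Isg15 and Cxcl10, and of Irf1, which was not higher at 12 h. They run 5′ to 3′ on the gene's strand and end just before the RefSeq start, and capitals mark matches of the ISRE core on either strand.
Ifit1 (chr19:34640639-34640888, plus strand): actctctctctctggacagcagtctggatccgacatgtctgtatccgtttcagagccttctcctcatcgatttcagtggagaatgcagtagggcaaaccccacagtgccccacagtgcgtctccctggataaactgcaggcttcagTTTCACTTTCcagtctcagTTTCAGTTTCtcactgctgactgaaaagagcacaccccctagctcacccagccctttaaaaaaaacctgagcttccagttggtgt
Ifit3 (chr19:34583279-34583528, plus strand): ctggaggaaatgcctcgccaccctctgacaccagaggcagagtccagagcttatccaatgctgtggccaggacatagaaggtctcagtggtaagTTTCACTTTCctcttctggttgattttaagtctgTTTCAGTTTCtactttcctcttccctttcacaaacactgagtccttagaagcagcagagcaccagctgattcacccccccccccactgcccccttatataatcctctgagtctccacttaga
Ifit3b (chr19:34607707-34607956, plus strand): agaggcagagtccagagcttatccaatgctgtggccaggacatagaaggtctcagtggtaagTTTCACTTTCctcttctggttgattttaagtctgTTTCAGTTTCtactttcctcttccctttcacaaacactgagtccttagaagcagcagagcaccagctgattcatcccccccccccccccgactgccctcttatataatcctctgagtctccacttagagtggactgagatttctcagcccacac
Isg15 (chr4:156200819-156201068, minus strand): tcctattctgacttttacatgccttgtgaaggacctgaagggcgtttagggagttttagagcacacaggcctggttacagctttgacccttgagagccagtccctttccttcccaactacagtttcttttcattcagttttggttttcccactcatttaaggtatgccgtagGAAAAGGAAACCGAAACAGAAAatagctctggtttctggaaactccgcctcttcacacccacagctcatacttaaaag
Cxcl10 (chr5:92348890-92349139, minus strand): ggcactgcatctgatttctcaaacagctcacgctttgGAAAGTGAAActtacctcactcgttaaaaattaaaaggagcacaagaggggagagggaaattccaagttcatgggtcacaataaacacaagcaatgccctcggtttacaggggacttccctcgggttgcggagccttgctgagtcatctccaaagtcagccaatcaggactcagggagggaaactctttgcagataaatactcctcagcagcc
Irf1 (chr11:53769764-53770013, plus strand): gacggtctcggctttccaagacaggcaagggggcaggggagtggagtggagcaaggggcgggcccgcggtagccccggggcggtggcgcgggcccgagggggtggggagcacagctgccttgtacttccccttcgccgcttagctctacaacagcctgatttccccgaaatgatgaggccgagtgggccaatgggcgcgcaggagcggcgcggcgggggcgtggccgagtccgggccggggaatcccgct

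Ifit1, Ifit3 and Ifit3b each carry 2 matches, in Ifit3 and Ifit3b within a stretch the copies share. Isg15 carries 3 matches that overlap each other, Cxcl10 carries 1, and the Irf1 window carries 0. The 14 genes with a match and a 12 h ratio had a median ratio of 3.04 (1.60 to 5.33), and the 16 without a match had a median of 1.76 (-0.13 to 5.46), so the ranges overlapped. Cmpk2, Oasl1 and Ifi44 were among the latter with 12 h ratios of 5.46, 4.73 and 3.87. The interferon gamma-activated site TTCNNNGAA, which reads the same on both strands, was found at 7 of the 38 start sites, 18.4%, and in 7.02% of all windows. An NF-kB site was found at 4 of the 38 start sites, 10.5%, those of Cxcl10 (2 matches), Oasl1, Bst2 and Irf1, and in 3.90% of all windows. A match shows letters in a window and not a bound factor, and no match says only that these letters are not in this window.

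At 1 h the picture was mixed. Of the 38 genes, 11 had a ratio above 1 (11.3% of all genes did) and 3 had a ratio below -1 (10.7% of all genes), with a median of 0.60. Beside Irf1 and Ccl5, the 11 included Isg15 (ratio 2.27), Oasl1 (2.01), Cxcl10 (1.94) and Usp18 (1.93). The 3 lower ones were Ifit2, at 115 untreated and 53.9 treated, and Rsad2 and Cmpk2, which had no more than 6 reads in either library. The treated 1 h library is among those with a high ribosomal share, and with ratios corrected for transcript length the median was 0.29, with 9 genes above 1.

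At 5 h in replicate 1, 11 of 38 genes had a ratio above 1 (13.3% of all genes) and 3 had a ratio below -1 (12.6% of all genes), with a median of 0.33. Of the 11, Ifit3b, Mx2 and Cmpk2 rest on 0 reads in the untreated library and at most 8 in the treated one. Parp14 was at 18.03 and 104, Stat2 at 91.8 and 208, and Ddx58 at 288 and 688. The 3 lower genes were Ifi35 (562 and 277), Ifi47 (65.6 and 15.5) and Trim30a (26.2 and 10.8). The untreated 5 h library had the highest ribosomal share of the 14, and its part in these ratios was not tested. With the length correction the median was 0.53, against 0.05 for all genes.

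At 24 h the treated library no longer stood above the untreated one. Only Oasl1 (7.7 and 27.0) and Ccl5 (6.9 and 85.5) had a ratio above 1, where 6.05% of all genes did. Mx2, Oasl2, Igtp and Trim30a had a ratio below -1, where 8.05% of all genes did. The median was -0.40 and 9 of 38 ratios were above 0. Stat2, for example, was at 803 untreated and 437 treated, and Rsad2 at 44.4 and 22.5. As given above, untreated cells were themselves higher at 24 h than at 1 h.

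Replicates 2 to 4 allow a test, at 5 h only. In these 6 libraries 36 of the 43 genes had a mean of at least 10 and entered a fit over 13096 genes, while Mx1, Mx2, Oas1a, Oas2, Oas3, Oasl1 and Cxcl9 did not. With limma without a replicate block, 0 of 36 were called higher at a Benjamini-Hochberg adjusted p under 0.05 (0.97% of all genes were) and 0 lower (0.267% were). At an unadjusted p under 0.05, 12 of the 36 and 3021 of all 13096 genes passed. edgeR on the recovered reads called 0 as well (0.817% of all genes were called higher and 0.214% lower). DESeq2 called 6 higher (6.68% of all genes) and 1 lower (4.53% of all genes). The replicate numbers paired the libraries, and with the replicate as a block limma called 13 of 36 higher (17.9% of all genes) and 3 lower (19.3% of all genes). With the block, the share called higher was thus above that of all genes and the share called lower was below it. Of the 13, Ccl5, Cxcl10, Gbp3, Igtp and Oasl2 had untreated means under 10 (6.09 to 9.77). They passed the filter through their treated values, and the 5 h counts were not repeated on untreated means. The median log2 fold change of the 36 was 0.74, against -0.02 for all genes, with 26 above 0.

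Ccl5 had the largest fold change. Its normalised counts were 8.8, 9.7 and 5.9 in untreated replicates 2, 3 and 4, and 1754, 92.6 and 1520 in the treated ones. All 3 treated values lay above all untreated ones, by a factor of 9.50 in replicate 3 and of 199 and 256 in replicates 2 and 4. The log2 fold change was 6.13 ± 1.08 (SE, n = 3), with a limma adjusted p of 0.0532, and 4.57e-04 with the replicate block. With replicate 1 included, edgeR called it at an adjusted p of 0.0160. The adjusted p ranged up to 0.683 when replicates were left out of both groups.

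Cxcl10 was at 7.7, 7.0 and 14.1 untreated and at 154, 23.0 and 281 treated. The groups did not overlap, and treated replicate 3 was the lowest of its group, as for Ccl5. The log2 fold change was 3.32 ± 0.89 (SE, n = 3; limma adjusted p = 0.1104, with the replicate block 0.00145).

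Gbp2 was at 230, 129 and 103 untreated and at 772, 343 and 656 treated, a log2 fold change of 1.93 ± 0.40 (SE, n = 3; limma adjusted p = 0.0721, with the block 3.50e-04). Bst2 was at 136, 135 and 114 untreated and at 416, 182 and 450 treated (1.33 ± 0.36; adjusted p = 0.1101, with the block 0.00482). Gbp3 was at 11.0, 7.0 and 11.4 untreated and at 40.7, 23.0 and 77.9 treated (2.02 ± 0.54; adjusted p = 0.109, with the block 0.00428). In these 3 genes every treated value of replicates 2 to 4 exceeded every untreated value, and each of the 3 pairs moved the same way. Replicate 1 differed at 5 h. There Bst2 was lower in the treated library, at 693 untreated and 511 treated. Gbp3 was about level, at 47.5 and 49.5, and only Gbp2 was clearly higher, at 315 and 528. The others called higher with the block were Isg15, Oasl2, Dhx58, Ifi35, Igtp, Xaf1, Parp9 and Parp14, with log2 fold changes from 0.47 for Ifi35 to 2.03 for Oasl2.

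Counting separation instead of p-values, 12 of 36 genes had all 3 treated values above all 3 untreated ones, as 15.1% of all genes did, and 2 of 36 had them all below, as 13.6% did. Those 2 were Ifit2 and Eif2ak2. Of the 12 above, Ccl5, Cxcl10, Gbp3 and Igtp had untreated means under 10 (8.17 to 9.77) and passed the filter through their treated values. This count was not repeated on untreated means. Ifit2 was at 398, 387 and 388 untreated and at 225, 256 and 250 treated, tight in both groups, with a log2 fold change of -0.68 ± 0.14 (SE, n = 3; limma adjusted p = 0.0731, with the block 0.00475). Eif2ak2 was at 570, 650 and 734 untreated and at 316, 562 and 559 treated (-0.48 ± 0.25; adjusted p = 0.294, with the block 0.0241). Irf1 was also called lower with the block, at 173, 270 and 210 untreated and 111, 184 and 143 treated (-0.58 ± 0.27; adjusted p = 0.247, with the block 0.0184). In replicate 1 at 5 h, Irf1 was lower in the treated library too, at 374 and 260, while Ifit2 was at 88.5 and 118 and Eif2ak2 at 203 and 431.

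**Figure D3:**
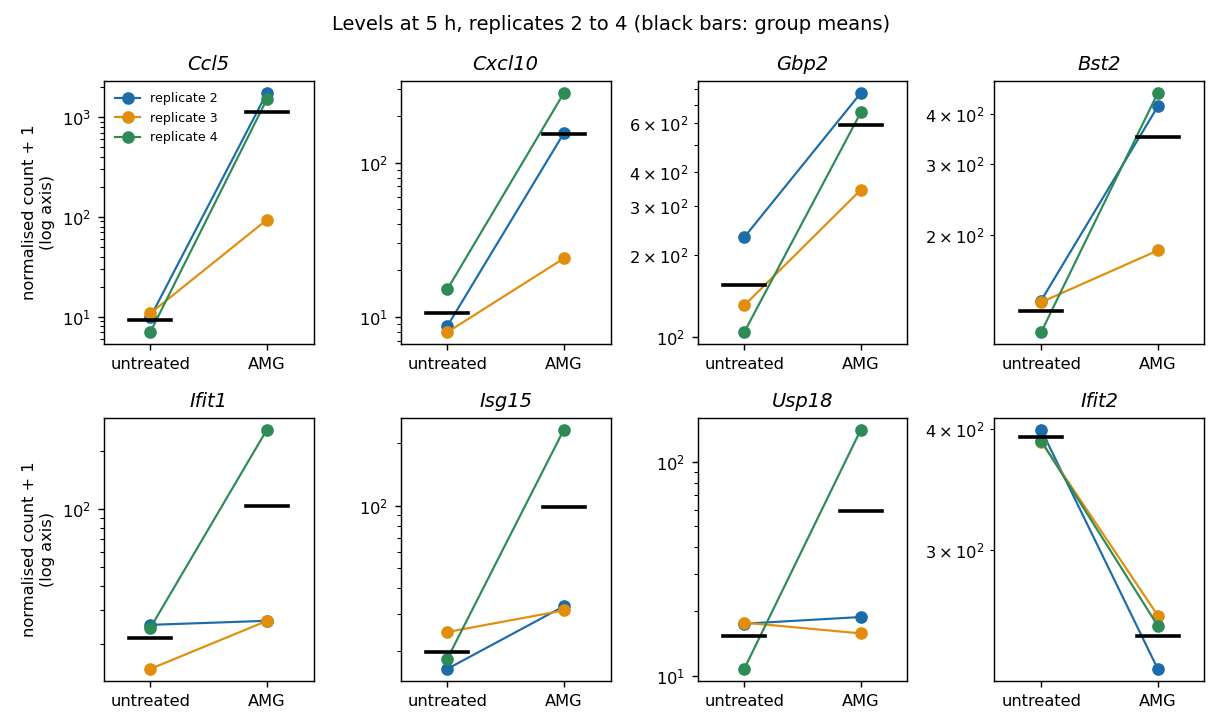
Normalised count + 1 (vertical log axis, scaled separately in each panel) at 5 h for 8 interferon-stimulated genes, untreated and AMG-treated, with a line for each of replicates 2, 3 and 4 and black bars for the group means. Ccl5, Cxcl10, Gbp2 and Bst2 are higher with AMG in all 3 replicates, Ifit1, Isg15 and Usp18 are highest in treated replicate 4, with all 3 treated values of Ifit1 and Isg15 above the untreated ones, and Ifit2 is lower in all 3.

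Several of the genes that stood highest at 12 h were highest at 5 h in treated replicate 4. Ifit1 was at 24.2, 13.9 and 23.3 untreated and at 25.4, 25.4 and 255 treated. Isg15 was at 15.4, 23.7 and 17.3 untreated and at 31.8, 30.3 and 230 treated. Usp18 was at 16.5, 16.7 and 9.7 untreated and at 17.8, 14.8 and 141 treated. In each, treated replicate 4 stood well above the 5 other libraries. Treated replicates 2 and 3 lay above all untreated values in Isg15, narrowly so in Ifit1, and among or just above them in Usp18. Treated replicate 4 was also far above the others for Ifit3 (252 in treated replicate 4, 27.9 to 47.6 elsewhere) and Irf7 (162, against 22.3 to 50.3).

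Taken pair by pair, the median log2 ratio of the 36 genes was 0.09 in replicate 2, 0.25 in replicate 3 and 1.70 in replicate 4. A ratio above 1 was found for 10 genes in replicate 2 (7.14% of all genes), for 7 in replicate 3 (4.08% of all genes) and for 22 in replicate 4 (6.22% of all genes). Of the 7 in replicate 3, Rsad2, Zbp1, Cxcl10, Gbp3 and Igtp rest on 1 to 6 untreated reads. The counting intervals of the fold for Zbp1 (0.76 to 9.68) and Igtp (0.98 to 7.31) include 1. Without replicate 4 in both groups the median log2 fold change was 0.25, and without treated replicate 4 alone it was 0.15. Leukocyte markers were higher in replicate 4 than in replicates 2 and 3, but in both of its groups, as given above. Their part in the replicate 4 ratios was not tested.

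**Figure D4:**
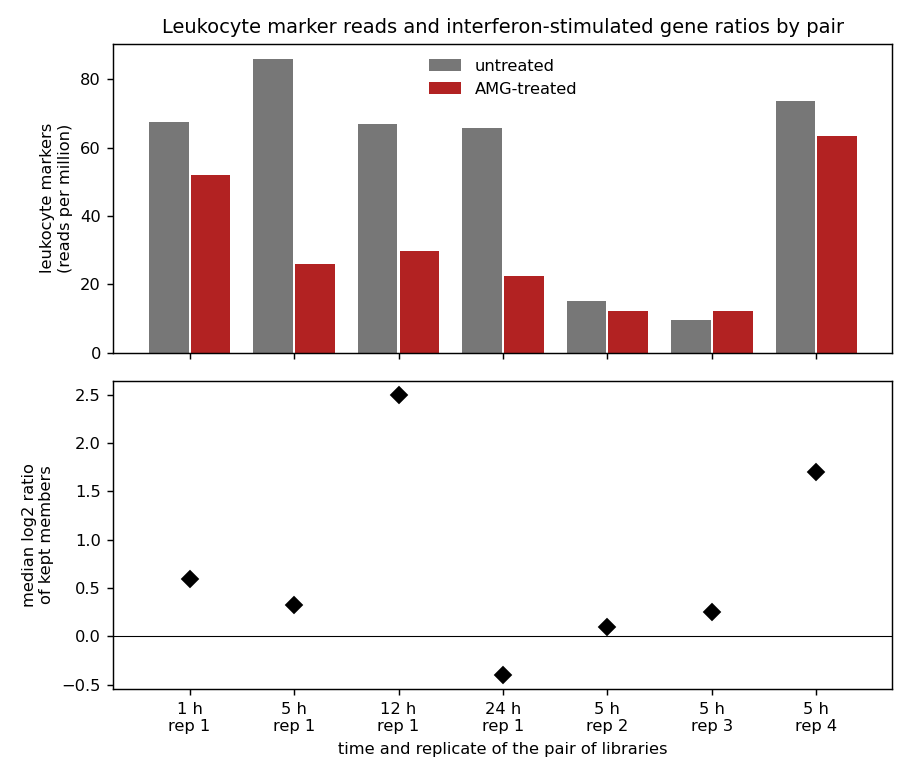
Summed level of 11 leukocyte markers (reads scaled to 1000000 in a library) in untreated (grey) and AMG-treated (red) libraries, above, and the median log2 ratio of the interferon-stimulated genes with a mean of at least 10, below, for the 7 pairs of libraries. The marker sum is 22.3 to 86.0 in replicates 1 and 4 and 9.49 to 15.2 in replicates 2 and 3. The 2 highest medians are 2.50 at 12 h in replicate 1 and 1.70 at 5 h in replicate 4. The other medians are 0.60, 0.33 and -0.40 at 1, 5 and 24 h in replicate 1, and 0.09 and 0.25 in replicates 2 and 3.

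The most and the least induced genes at 12 h were followed into the replicates that had not been used to rank them. The 8 with the largest 12 h ratios were Ccl5, Cmpk2, Cxcl10, Rsad2, Ifit1, Oasl1, Usp18 and Ifit3. Of these, 7 were tested at 5 h, with a median log2 fold change of 1.43 (0.68 to 6.13). By replicate, their median ratio was 0.10, 0.82 and 3.73 in replicates 2, 3 and 4. Of these 7, Ccl5, Cmpk2 and Cxcl10 had untreated means of 8.2, 7.5 and 9.6 at 5 h. They passed the filter through their treated values, and the medians were not repeated without them. The 6 with the smallest 12 h ratios, Ddx58, Ifit2, Eif2ak2, Ifi35, Lgals3bp and Irf1, had a median log2 fold change of -0.22 at 5 h (-0.68 to 0.47), and medians of -0.45, -0.10 and -0.02 by replicate. The sets were thus closest in replicate 2 and farthest apart in replicate 4. In replicate 1 their medians at 24 h were -0.39 and -0.37.

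A list of 91 further genes of the interferon pathway, among them the interferons above, had 58 tested at 5 h in replicates 2 to 4. By limma 1 was called higher and 0 lower, where 0.97% and 0.267% of all genes were, and with the replicate block 17 were called higher and 8 lower, where 17.9% and 19.3% of all genes were. The 1 called was Ifi205, of the DNA-sensing AIM2-like family, at 5.5, 4.2 and 7.6 untreated and 54.7, 66.4 and 93.7 treated (log2 fold change 3.42 ± 0.42, SE, n = 3; limma adjusted p = 0.0208). Of the 17, Ifi205 and Gbp5 had untreated means of 5.75 and 0.37, so they passed the filter through their treated values. Of the receptor chains, 3 of 5 were called higher with the block, Ifnar2, Ifngr2 and Il10rb. Of 5 kinases and STATs 0 were called higher and Stat3 was called lower. Of 4 tested inhibitors of the pathway, Socs1 and Socs3 were called higher with the block and Pias1 was called lower.

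At 12 h in replicate 1, 24 of 66 pathway genes with a mean of at least 10 had a ratio above 1, where 5.93% of all genes did, and the median was 0.56. The list's other interferon-induced genes accounted for 21 of these, out of 40, with a median of 1.16. A gene could pass this filter through its treated values alone, and the count was not repeated on untreated means. Gbp5, for example, did not exceed 9.5 in untreated cells and was at 61.9 in the treated 12 h library. Socs1, an inhibitor of JAK kinases, was at 155 untreated and 614 treated at 1 h, the time at which Irf1 was highest.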

How the data were processed

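RNA from 14 libraries of wounded mouse fibroblasts was measured by sequencing of stranded mRNA libraries. Per the labels, the submitters' processing notes name FastQC 0.11.5, TopHat2 2.0.13, SAMtools 0.1.19.24, HTSeq 0.5.3p3, DESeq and the build mm10. Which annotation was counted, and whether by strand, is not given in the sources used here, so overlapping genes are uncertain. The authors deposited a normalised signal per gene, the read count divided by a size factor, separately for replicate 1 (8 libraries) and replicates 2 to 4 (6 libraries), so levels were compared within a table only. The low values were whole multiples of 1 step per library, so that 100% of them could be turned back into whole reads (tolerance 0.1).

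For replicates 2 to 4, limma 3.58.1 (R 4.3.3) was run on log2 values with a pseudocount of 1 (trend, two-sided, Benjamini-Hochberg over all genes), on genes with a mean of at least 10. Fold changes on this scale understate the change of low genes. The script was tested on simulated data. Groups came from the sample titles. The labels call the 5 h replicates biological but do not say what they share, and p-values measure the spread between these samples. Deviations from the group means correlated at r = 0.65, 0.76 and 0.70 between libraries of the same number and at -0.59 to 0.12 otherwise. The numbers were therefore taken as pairs in the fits with a block and in the ratios by replicate. The limma fit reported first had no block, so its p-values leave the pairing out. Alternatives were the replicate block, DESeq2 1.42.0 and edgeR 4.0.16 on those whole reads, other pseudocounts, filters and scalings, a length correction and leaving out libraries. The length correction without the block, leaving out a replicate in both groups, leaving out members with an overlapping gene or copy, and the filter on untreated means were chosen after seeing the data. Exons and coordinates came from GENCODE M21 (GRCm38).

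Intervals are exact 95% intervals and, like the floor of 3 reads, cover counting error only, since reads carry no molecular identifiers. The members and all lists were chosen with earlier results of these data known. Named are members called with the block, the 8 largest and 6 smallest 12 h ratios, and the factors, sensors and chemokines whatever their values. Other members named with values (Ifit3b, Mx1, Mx2, the OAS genes, Ifi47, Ifi44, Trim30a, Rtp4, Irgm1 and Dtx3l) and the pathway genes with values other than Ifi205 were chosen after their values were seen.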

Additional observations from a re-analysis of the deposited data

Results flagged for a closer look

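The 4 treated to untreated ratios at 5 h, from replicates 1 to 4, were searched in 36 interferon-stimulated genes for a ratio far from the other 3 by Dixon's criterion at 95%. This was met by 1 gene. Irgm1, a GTPase of the immunity-related family, had a log2 ratio of -0.42 in replicate 2, against 0.04 in each of the others. Chance marks about 1 in 20 such groups.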

How the results depend on the processing

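The median ratio of the interferon-stimulated genes kept its direction at each time of replicate 1 and at 5 h in replicates 2 to 4 under each alternative run. At 5 h, 0 members were called higher and 0 lower as reported. Higher calls, with the share of all genes called higher in brackets, were 13 with the replicate block (17.9%), 15 with edgeR and the block (18.4%), 10 with the length correction and the block (16.4%), 6 with DESeq2 (6.68%), and 1 each (Ccl5) with all genes above 0 (0.605%), with the length correction alone (1.10%) and with edgeR on all 4 replicates (1.37%). Lower calls were 3 in each of the fits with a block (17.1% to 19.3% of all genes) and 1 with DESeq2 (4.53%). Leaving out libraries gave 0 to 7 higher and 0 to 1 lower calls. There were 6 higher and 1 lower without treated replicate 3 (8.75% and 8.04% of all genes), and 7 and 1 without replicate 3 in both groups (11.2% and 10.3%). The median fold change then ranged from 0.15 to 1.13, lowest without treated replicate 4. Over these, Ifit3 ranged from -0.27 to 1.30, Irf9 from -0.04 to 0.27, Usp18 from -0.03 to 1.92 and Lgals3bp from -0.15 to 0.23. Those below 0 for Ifit3 (-0.27, and -0.17 without replicate 4 in both groups), Irf9 (-0.03 and -0.04 likewise) and Usp18 (-0.03, in both groups only) all lacked treated replicate 4. Lgals3bp, at 0.04 as reported, went to -0.09 with the length correction, with or without the block, to -0.15 without treated replicate 3, to -0.12 without untreated replicate 4 or replicate 4 in both groups, and to -0.00 without untreated replicate 2.

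For replicate 1, the share of all genes is given in brackets after each count. The 1 h count of 11 higher became 6 (11.3%) without members that overlap or copy another gene, with 22 left. The 3 lower became 0 (8.03%) with a pseudocount of 10 and 1 (8.61%) with a mean of at least 50. At 5 h, 11 higher became 6 (11.1%) with a pseudocount of 10. The 3 lower became 1 (10.4%) with that pseudocount, 5 (14.8%) with upper quartile rescaling and 0 (12.6%) without overlapping members. At 12 h, 35 higher became 21 of the 22 left (5.93%) without overlapping members. At 24 h, 4 lower became 2 (6.01%) with a pseudocount of 10 and 7 (11.4%) over all members. The 2 higher became 1 with a mean of at least 50 (4.55%) or without overlapping members (6.05%). They became 0 with an untreated mean of at least 10 (5.28%). Apart from settings that drop members, the cause was not tested. Depth limits the interferons and the lowest members, at or under 31 reads.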
